A study of Mus musculus with 6 samples.

Results

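The genes described here are 30 mouse genes of homologous recombination, the Fanconi anaemia pathway and mismatch repair, with the kinases that signal damage to them. They were taken from a list of symbols matched to the gene identifiers of a count table of 52740 gene rows, and each symbol matched 1 row. The table holds 6 RNA-seq libraries of the C2C12 line, mouse myoblasts able to fuse into myotubes. Of these, 3 were transfected with an siRNA against Cox7a2l (siCOX7A2L) and 3 with a control siRNA (siCTRL). All cells were kept in growth medium with 10% fetal bovine serum and transfected with RNAiMAX, and total RNA was depleted of ribosomal RNA before sequencing. The Cox7a2l protein links complexes III and IV of the respiratory chain. The labels do not say whether the replicates of a group are independent cultures, so the p-values below cover the spread between these libraries, which may be technical.

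Homologous recombination repairs a double-strand break by copying an intact sister chromatid. Ends are resected to single-stranded tails, BRCA proteins load a recombinase on them, and motor proteins and helicases carry the exchange through. The Fanconi proteins act where a fork meets an interstrand crosslink: a core complex ubiquitinates a clamp of Fancd2 and Fanci, which then calls in nucleases and recombination. Mismatch repair removes bases misincorporated by the polymerases. Many of these genes are most abundant in S phase, when E2F factors drive their transcription, and they fall in cells that leave the cycle, as myoblasts do when they differentiate.

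Total estimated counts ran from 9890218 to 17077826 per library, with Cox7a2l siRNA replicate 3 the smallest. In both groups, replicate 3 lay away from the other replicates. Protein genes of mitochondrial DNA took 0.616%, 0.589% and 1.61% of counts in Cox7a2l siRNA replicates 1, 2 and 3, against 0.601%, 0.603% and 2.78% in control replicates. The summed level of 4 myotube markers (Myog, Myh3, Tnnt1 and Ckm) was 21.0, 5.97 and 288 CPM after Cox7a2l siRNA, against 5.68, 6.33 and 100.5 CPM in control cells, where CPM is the count scaled to the library's size. Of the 3 of these markers that could be tested, Tnnt1 rose, at a log2 fold change of 2.03 (standard error 0.20, edgeR adjusted p = 0.00226), a call lost without the block (adjusted p = 0.846). Myog had a log2 fold change of 0.90 (standard error 0.71, edgeR adjusted p = 0.616) and Myh3 one of 1.14 (standard error 0.29, edgeR adjusted p = 0.0945), and both were lower after Cox7a2l siRNA in pair 2. These marker genes were all highest in replicate 3 of both groups. Of 2 fibroblast markers, Dcn rose, with 9.89, 3.65 and 45.1 CPM after Cox7a2l siRNA, against 1.85, 2.48 and 11.7 CPM in control cells. Its log2 fold change was 1.72 (standard error 0.30, edgeR adjusted p = 0.0419), and this call too was lost without the block (adjusted p = 0.822). The other, Pdgfra, had 14.7, 21.6 and 10.2 CPM after Cox7a2l siRNA, against 14.4, 14.9 and 11.4 CPM in control cells, with a log2 fold change of 0.15 (standard error 0.18, edgeR adjusted p = 0.729), and was lowest in replicate 3 of both groups. The label was checked against 6 myoblast markers. The myogenic factor Myod1 had 118, 126 and 161 CPM after Cox7a2l siRNA, against 130.2, 127 and 134 CPM in control cells. Myf5, a related factor, had 79.6, 44.9 and 58.4 CPM after Cox7a2l siRNA, against 56.6, 58.8 and 32.98 CPM in control cells, and the myoblast cadherin Cdh15 had 232, 213 and 435 CPM after Cox7a2l siRNA, against 221, 216 and 348 CPM in control cells, so all 3 were present in every library. The other myoblast markers, Des, Itga7 and Vim, had log2 fold changes of 0.34, -0.03 and -0.18 (edgeR adjusted p = 0.327, 0.937 and 0.489). Vim was lower after Cox7a2l siRNA in all 3 pairs. Of the markers of other cell types, the summed level of leukocyte, endothelial, adipocyte or epithelial markers reached at most 3.19 CPM, and Epcam was at 0 in all 6 libraries. One unnamed gene row held 6.97%, 7.57% and 11.1% of all counts after Cox7a2l siRNA, against 6.59%, 6.25% and 5.81% in control cells. Fold changes below come from edgeR with replicate number as a blocking term, so that each siRNA library is set against its same-numbered control.

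Cox7a2l itself had 6.72, 5.90 and 3.59 CPM in Cox7a2l siRNA replicates 1, 2 and 3, against 57.96, 59.5 and 58.9 CPM in control replicates 1, 2 and 3. The groups did not overlap, and Cox7a2l fell to 0.0923 times the control level, with a log2 fold change of -3.44 (standard error 0.19, edgeR adjusted p = 1.9e-05).

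Most of the 30 repair genes had lower values after Cox7a2l siRNA, by a modest amount each. All 30 passed the filter on low counts, with 15 to 1637 counts in a library. The log2 fold change was negative for 28 of 30, against 48.9% of the 15022 genes tested, with a median of -0.44 beside 0.01 for all genes. Of the 30 genes, 22 were lower in all 3 pairs of libraries, against 20.8% of all genes, and 1 was higher in all 3, against 21.2%. In 11 of 30 each Cox7a2l siRNA library lay below each control library, against 7.62% of all genes, and in 0 of 30 each lay above, against 7.96%. An unadjusted p under 0.05 in the lower direction was reached by 15 of 30 genes, against 8.97% of all genes. After Benjamini-Hochberg adjustment over all genes, 1 of 30, Msh6, fell, against 0.293% of all genes, and 0 rose, against 0.433%, or 0.726% in either direction. Because RNA was taken from whole cultures, fewer cells that express these genes and less RNA in each cell cannot be told apart.

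**Figure D1:**
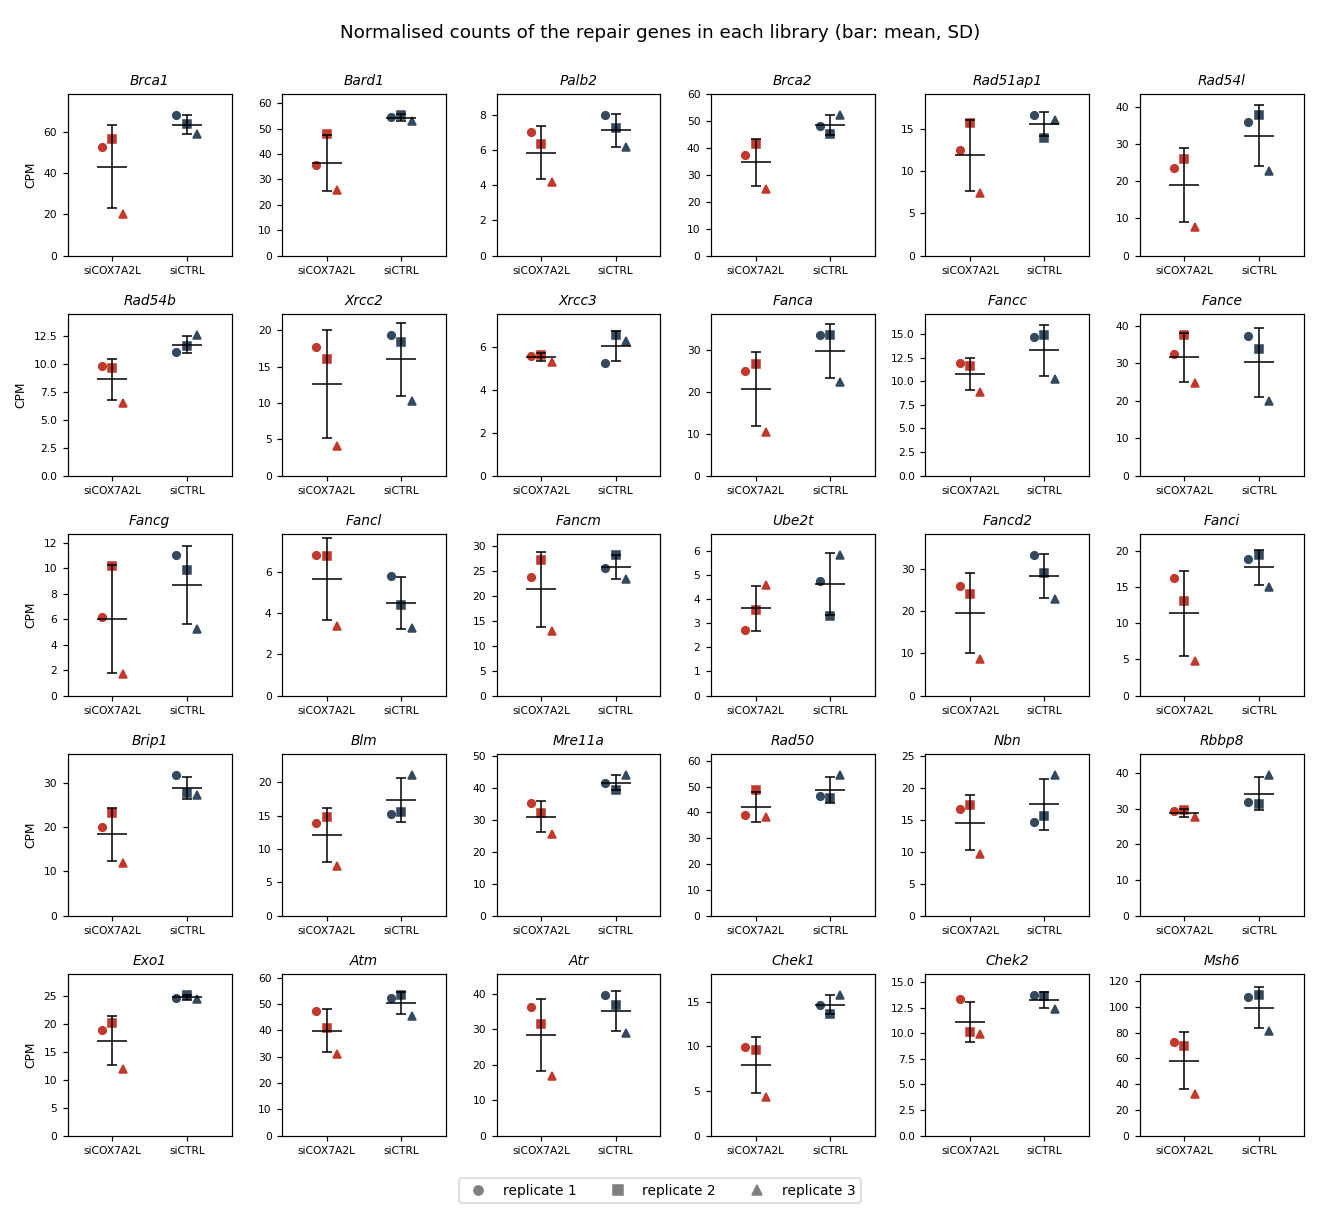
Normalised counts (CPM, linear axes from 0) of each of the 30 genes in the 3 Cox7a2l siRNA libraries (red, left) and the 3 control libraries (dark, right), with the marker shape giving the replicate number and the bar the mean and SD. For 26 of the 30 genes the lowest of the 6 values is Cox7a2l siRNA replicate 3.

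The size of the difference depended on the pair. The median over the 30 genes was -0.24 in pair 1, -0.21 in pair 2 and -1.02 in pair 3 on the log2 scale, beside medians of 0.00, 0.00 and 0.01 over all genes tested. The value was negative for 27 of 30 genes in pair 1, 23 in pair 2 and 28 in pair 3. Pair 3 gave the most negative value for 26 of 30 genes, against 5830 of the 15022 genes tested. The difference between the siRNA effect in replicate 3 and that in replicates 1 and 2 was tested as an interaction. In that edgeR test 0 of 30 genes passed (adjusted p from 0.164 to 0.994), against 0.0799% of all genes, while 18 of 30 had an unadjusted p under 0.05, against 17.5% of all genes. The interaction term was negative for 27 of 30 genes, with a median of -0.70, against 7618 of the 15022 genes tested, with a median of -0.0077. Without replicate 3 the fit gave a median log2 fold change of -0.25, again negative for 28 of 30 genes. In that fit 0 of 30 passed in edgeR, against 0.133% of all genes in the lower direction. Without replicate 1, 5 of 30 fell, against 1.32% of all genes, and without replicate 2, 14 of 30 fell, against 4.34%.

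**Figure D2:**
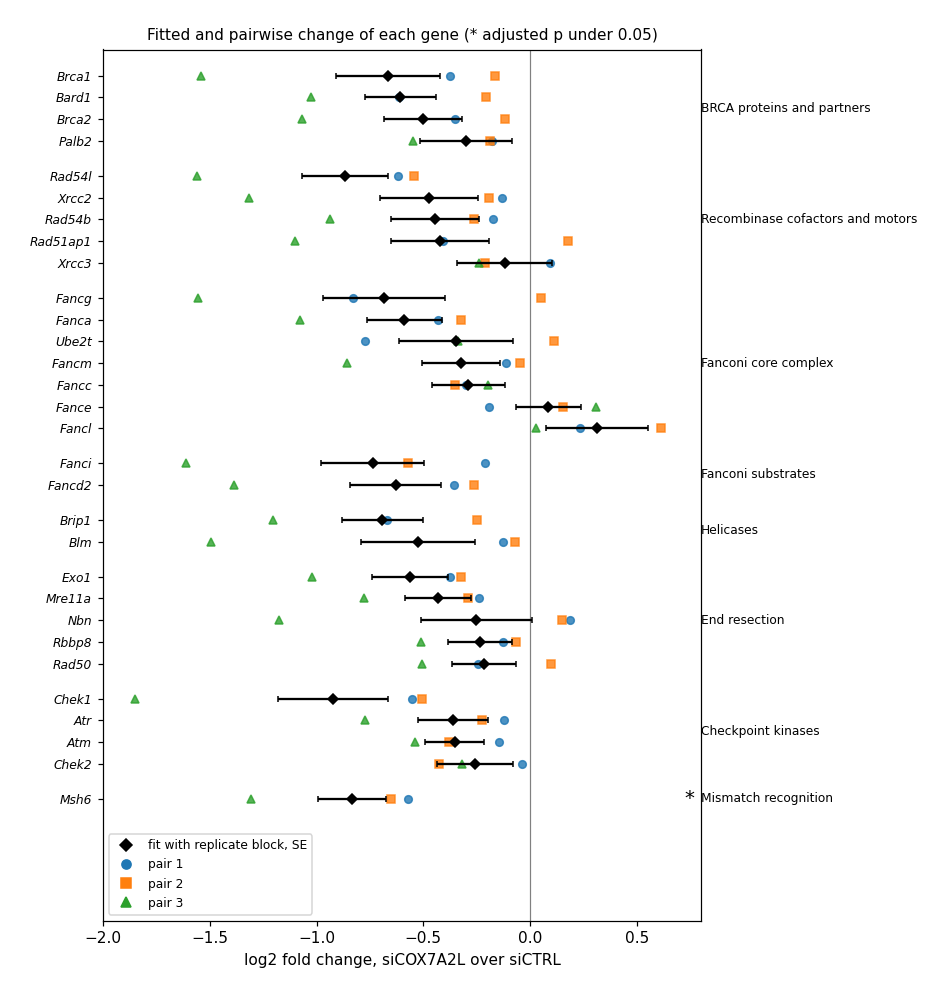
Log2 fold change of each gene, Cox7a2l siRNA over control, from the edgeR fit with the replicate block (diamonds, bars are standard errors) and from each pair of libraries (circle, square and triangle for pairs 1, 2 and 3), grouped by role; the star marks Msh6, at adjusted p = 0.0433. Pair 3 lies farthest left for 26 of the 30 genes, and the fitted values run from -0.92 to 0.31.

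Msh6 (ENSMUSG00000005370.5) encodes the subunit that recognises single mismatched bases and starts their repair. It had 72.6, 69.7 and 32.7 CPM in Cox7a2l siRNA replicates 1, 2 and 3, against 108, 109 and 81.03 CPM in control replicates 1, 2 and 3. The 3 Cox7a2l siRNA libraries all lay below the 3 control libraries, and replicate 3 was the lowest in each group. Msh6 averaged 58.3 ± 22.3 CPM after Cox7a2l siRNA and 99.5 ± 16.03 CPM in control cells (SD, n = 3 each), and fell to 0.561 times the control level, with a log2 fold change of -0.83 (standard error 0.16, edgeR adjusted p = 0.0433). The pairs gave -0.57, -0.65 and -1.31. The call was lost without the block (log2 fold change -0.77, edgeR adjusted p = 0.771), without replicate 3 (log2 fold change -0.62, adjusted p = 0.0661) and when libraries were scaled by size alone (log2 fold change -0.88, adjusted p = 0.0743). With replicate 3 as the only blocking term, Msh6 was again the 1 gene of the 30 called lower, against 0.526% of all genes (edgeR adjusted p = 0.0397). The call also held without replicate 1 (adjusted p = 0.00225) and without replicate 2 (adjusted p = 1.0e-04). Of the 31-base words in Msh6 transcripts, 9.29% also occur in Gm11855, which was at 0 counts in all 6 libraries.

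The effector kinase Chek1, which halts the cycle when forks stall, had the most negative log2 fold change of the 30 genes, -0.92 (standard error 0.26, edgeR adjusted p = 0.110). It had 9.89, 9.55 and 4.27 CPM after Cox7a2l siRNA, against 14.6, 13.6 and 15.8 CPM in control cells. The groups did not overlap, and the pairs gave -0.55, -0.51 and -1.85, the widest in pair 3. Chek2, the effector kinase of the double-strand break response, had 13.4, 10.1 and 9.88 CPM after Cox7a2l siRNA, against 13.7, 13.6 and 12.3 CPM in control cells, with a log2 fold change of -0.26 (standard error 0.18, edgeR adjusted p = 0.480). Its groups overlapped, since replicate 1 after Cox7a2l siRNA lay above control replicate 3. The apical kinases Atm and Atr, which sense breaks and single-stranded DNA, had log2 fold changes of -0.35 (standard error 0.14, edgeR adjusted p = 0.222) and -0.36 (standard error 0.16, edgeR adjusted p = 0.276). All 4 kinases were lower in all 3 pairs, and none passed over all genes.

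Brca1, which with its partner Bard1 forms a ubiquitin ligase that steers a break towards recombination, had 52.3, 56.6 and 20.1 CPM after Cox7a2l siRNA, against 68.1, 63.4 and 58.7 CPM in control cells. The difference was widest in replicate 3, with pairs at -0.38, -0.16 and -1.54. The log2 fold change was -0.67 (standard error 0.25, edgeR adjusted p = 0.213). Bard1 had 35.7, 48.03 and 25.9 CPM after Cox7a2l siRNA, against 54.7, 55.4 and 52.9 CPM in control cells, with a log2 fold change of -0.61 (standard error 0.17, edgeR adjusted p = 0.103). Brca2, which loads the recombinase on resected DNA, had 37.6, 41.6 and 24.9 CPM after Cox7a2l siRNA, against 48.1, 45.1 and 52.3 CPM in control cells, with a log2 fold change of -0.50 (standard error 0.18, edgeR adjusted p = 0.187). For Brca1, Bard1 and Brca2 each Cox7a2l siRNA library lay below each control library. Palb2, the bridge between Brca1 and Brca2, had 7.03, 6.32 and 4.15 CPM after Cox7a2l siRNA, against 7.99, 7.23 and 6.14 CPM in control cells, with overlapping groups and a log2 fold change of -0.30 (standard error 0.21, edgeR adjusted p = 0.506).

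Among the cofactors of the recombinase, Rad54l, a motor that drives strand invasion, had 23.4, 25.8 and 7.64 CPM after Cox7a2l siRNA, against 35.98, 37.8 and 22.8 CPM in control cells. Its log2 fold change was -0.87 (standard error 0.20, edgeR adjusted p = 0.0720), the second most negative of the 30. The groups overlapped narrowly because control replicate 3 lay below replicates 1 and 2 after Cox7a2l siRNA, while within each pair the Cox7a2l siRNA library was lower (-0.62, -0.55 and -1.56). The related motor Rad54b had a log2 fold change of -0.44 (standard error 0.21, edgeR adjusted p = 0.292), and 35% of its 31-base words also occur in Fsbp, so its level is uncertain. Rad51ap1, which helps pair the invading strand, had 12.5, 15.8 and 7.41 CPM after Cox7a2l siRNA, against 16.7, 13.97 and 16.1 CPM in control cells, with pairs at -0.41, 0.18 and -1.10 and a log2 fold change of -0.42 (standard error 0.23, edgeR adjusted p = 0.371). Of the recombinase paralogues, Xrcc2 had 17.6, 16.01 and 4.04 CPM after Cox7a2l siRNA, against 19.3, 18.3 and 10.3 CPM in control cells, and was low in replicate 3 of both groups. Its log2 fold change was -0.47 (standard error 0.23, edgeR adjusted p = 0.316). Xrcc3 had 5.58, 5.62 and 5.28 CPM after Cox7a2l siRNA, against 5.22, 6.54 and 6.26 CPM in control cells, nearly level across the 6 libraries, with a log2 fold change of -0.12 (standard error 0.22, edgeR adjusted p = 0.826).

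Among the Fanconi genes, both members of the ubiquitinated clamp were lower in all 3 pairs. Fanci had 16.3, 13.1 and 4.83 CPM after Cox7a2l siRNA, against 18.9, 19.5 and 15.01 CPM in control cells, and Fancd2 had 25.9, 24.1 and 8.65 CPM after Cox7a2l siRNA, against 33.3, 28.9 and 22.8 CPM in control cells. Their log2 fold changes were -0.74 (standard error 0.24, edgeR adjusted p = 0.158) and -0.63 (standard error 0.21, edgeR adjusted p = 0.167). The groups overlapped in each, since control replicate 3 lay below Cox7a2l siRNA replicate 1 for Fanci and below replicates 1 and 2 for Fancd2. Of the 7 genes of the core complex and its ubiquitin-conjugating enzyme, 5 had a negative value and 2 a positive one, with a median of -0.32. Fancg, a scaffold of the core, had 6.15, 10.2 and 1.68 CPM after Cox7a2l siRNA, against 11.02, 9.84 and 5.22 CPM in control cells, the value in Cox7a2l siRNA replicate 3 resting on 15 counts. Its pairs gave -0.83, 0.05 and -1.55, with opposite signs, and its log2 fold change was -0.68 (standard error 0.29, edgeR adjusted p = 0.247). Fanca, its partner, was lower in all 3 pairs (-0.43, -0.33 and -1.08), with -0.59 (standard error 0.18, edgeR adjusted p = 0.125). Fancm, the translocase that anchors the core on DNA, and Fancc had log2 fold changes of -0.32 and -0.29, with edgeR adjusted p = 0.389 and 0.407. Fance, which docks the core on Fancd2, had 32.4, 37.5 and 24.6 CPM after Cox7a2l siRNA, against 37.1, 33.7 and 19.8 CPM in control cells, with a log2 fold change of 0.08 (standard error 0.15, edgeR adjusted p = 0.825). Fancl, the ubiquitin ligase subunit, was the 1 gene of the 30 that was higher in all 3 pairs (0.23, 0.61 and 0.03), with 6.84, 6.81 and 3.37 CPM after Cox7a2l siRNA, against 5.81, 4.40 and 3.30 CPM in control cells and a log2 fold change of 0.31 (standard error 0.24, edgeR adjusted p = 0.541). The conjugating enzyme Ube2t, which works with Fancl, had 2.73, 3.58 and 4.60 CPM after Cox7a2l siRNA, against 4.75, 3.30 and 5.85 CPM in control cells, was highest in replicate 3 of both groups, and had a log2 fold change of -0.35 (standard error 0.27, edgeR adjusted p = 0.543).

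Of the helicases, Brip1, which binds Brca1 and unwinds DNA at forks, had 19.96, 23.3 and 11.8 CPM after Cox7a2l siRNA, against 31.8, 27.7 and 27.3 CPM in control cells. Each Cox7a2l siRNA library lay below each control library, and the log2 fold change was -0.69 (standard error 0.19, edgeR adjusted p = 0.102). Blm, which dissolves joined recombination intermediates, had 13.9, 14.8 and 7.41 CPM after Cox7a2l siRNA, against 15.2, 15.6 and 21.1 CPM in control cells. Its groups did not overlap either, but pairs 1 and 2 were close to 0 (-0.13, -0.07 and -1.49), and the log2 fold change was -0.53 (standard error 0.27, edgeR adjusted p = 0.341).

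The 5 genes of end resection had a median log2 fold change of -0.25, the nearest to 0 of the role groups. Exo1, the exonuclease of long-range resection and of mismatch excision, had 18.9, 20.2 and 12.02 CPM after Cox7a2l siRNA, against 24.6, 25.3 and 24.5 CPM in control cells, with a log2 fold change of -0.56 (standard error 0.18, edgeR adjusted p = 0.139). The control libraries of Exo1 spanned less than 1 CPM, and all 3 Cox7a2l siRNA libraries lay below them. In the break-sensing complex, the nuclease Mre11a had 35.4, 32.1 and 25.7 CPM after Cox7a2l siRNA, against 41.7, 39.4 and 44.2 CPM in control cells, with no overlap and a log2 fold change of -0.43 (standard error 0.15, edgeR adjusted p = 0.178). Its ATPase partner Rad50 had 38.9, 48.7 and 38.3 CPM after Cox7a2l siRNA, against 46.1, 45.6 and 54.5 CPM in control cells, with overlapping groups and a log2 fold change of -0.22 (standard error 0.15, edgeR adjusted p = 0.490). The adaptor Nbn had 16.6, 17.3 and 9.66 CPM after Cox7a2l siRNA, against 14.6, 15.6 and 21.97 CPM in control cells. Nbn was higher after Cox7a2l siRNA in pairs 1 and 2 and lower in pair 3 (0.18, 0.15 and -1.17), and its log2 fold change of -0.25 turned to 0.17 without replicate 3. Rbbp8, which starts resection, had a log2 fold change of -0.23 (standard error 0.15, edgeR adjusted p = 0.448), with all 3 Cox7a2l siRNA libraries below the control libraries.

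Levels of different genes can be set side by side on the TPM scale, which allows for transcript length. The mean over the 6 libraries ran from 1.75 TPM for Palb2 to 21.7 TPM for Brca2, followed by 19.1 TPM for Fance, 16.1 TPM for Msh6 and 12.4 TPM for Mre11a, with a median of 6.17 TPM over the 30 genes. Brca2 had 20.03, 19.3 and 13.2 TPM in Cox7a2l siRNA replicates 1, 2 and 3, against 23.9, 22.8 and 31.3 TPM in control replicates 1, 2 and 3. Msh6 had 14.7, 12.8 and 5.00 TPM in Cox7a2l siRNA replicates 1, 2 and 3, against 21.99, 22.5 and 19.8 TPM in control replicates 1, 2 and 3. The ranges of Brca2, Fance and Msh6 over the 6 libraries overlapped, so their order is not resolved. In normalised counts Brca2 averaged 34.7 CPM after Cox7a2l siRNA and 48.5 CPM in control cells, against 58.3 and 99.5 CPM for Msh6. The annotated exons of Brca2 cover 13643 bases, against 4346 for Msh6. The higher TPM of Brca2 therefore depends on the transcript length assigned to it, which was not checked.

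In replicate 3 against the mean of replicates 1 and 2, the 30 genes were lower in 29 cases after Cox7a2l siRNA and in 19 in control cells. The median of that difference was -0.83 after Cox7a2l siRNA and -0.15 in control cells, on the log2 CPM scale. For all genes tested these medians were -0.02 and -0.01. Fancg (-2.14 after Cox7a2l siRNA and -0.98 in control cells), Xrcc2 (-2.02 and -0.87) and Rad54l (-1.67 and -0.69) were lower in replicate 3 of both groups. Blm (-0.94 and 0.45), Nbn (-0.80 and 0.54) and Chek1 (-1.16 and 0.16) were lower there after Cox7a2l siRNA and higher there in control cells. These are differences of 1 library from the mean of 2, with no test. Their interaction terms were -1.41 for Blm, -1.35 for Nbn and -1.35 for Chek1 (edgeR adjusted p = 0.171, 0.171 and 0.172).

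**Figure D3:**
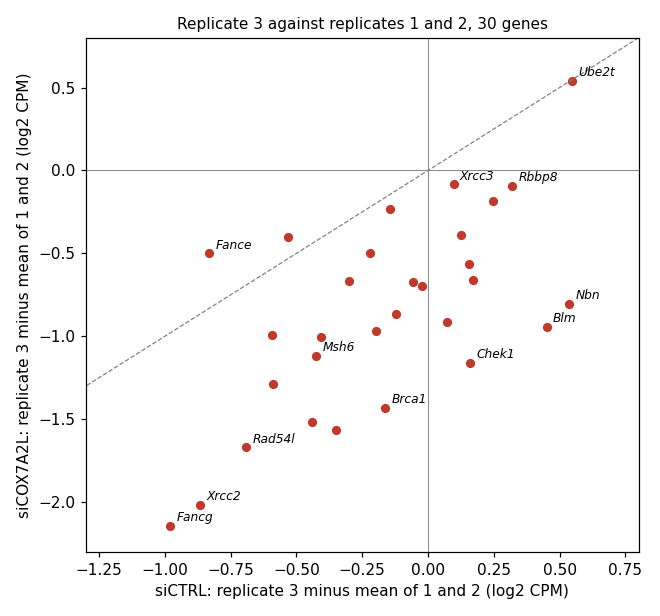
Log2 CPM of replicate 3 minus the mean of replicates 1 and 2 for the 30 genes, in Cox7a2l siRNA cells (vertical axis) and control cells (horizontal axis), with a dashed line where both are equal. The vertical values have a median of -0.83 and the horizontal values one of -0.15, and all points but Fancc and Fance lie below the line.

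Promoter windows were compared because 28 of the 30 genes had a fold change of the same sign. RefSeq windows on GRCm38.p6, from 250 bases before to 50 after the start, were used for 23 of the 30 genes. The other 7, Rbbp8 among them, do not enter the shares of repair genes or the medians below. Not all of these 7 need lack a window. Letters were searched on both strands. The E2F letters TTTCCCGC, TTTGGCGC, TTTCGCGC or TTTGCCGC occurred in 5 of 23 windows (Bard1, Brca2, Chek2, Fancg and Msh6), or 21.7%, against 2.32% of 27025 promoters. The CCAAT letters occurred in 16 of 23, or 69.6%, against 37.9%. The CHR letters TTTGAA or TTCGAA, an element of mitotic promoters, occurred in 2 of 23, or 8.7%, against 19.4%. Median log2 fold changes were -0.61 with and -0.39 without the E2F letters, and -0.39 with and -0.61 without CCAAT. For the CHR letters they were -0.48 with and -0.43 without. These differences were not tested. The windows below show the gene that fell (Msh6), the 4 windows with the most matches (Xrcc3, Brip1, Chek2 and Ube2t) and Chek1, which had the most negative fold change and no match. They are Msh6 at chr17:87974800-87975099 on the plus strand, Xrcc3 at chr12:111813830-111814129 on the minus strand, Brip1 at chr11:86201144-86201443 on the minus strand, Chek2 at chr5:110839733-110840032 on the plus strand, Ube2t at chr1:134962315-134962614 on the plus strand and Chek1 at chr9:36726609-36726908 on the minus strand. Each is written in the direction of transcription, with matches in capitals, and none of the matches overlap.
Msh6: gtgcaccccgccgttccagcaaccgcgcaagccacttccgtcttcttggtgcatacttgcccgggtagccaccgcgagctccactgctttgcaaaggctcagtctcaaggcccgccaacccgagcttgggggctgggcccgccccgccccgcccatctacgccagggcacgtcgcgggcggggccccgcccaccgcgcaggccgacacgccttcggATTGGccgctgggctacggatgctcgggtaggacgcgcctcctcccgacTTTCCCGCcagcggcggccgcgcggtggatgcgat
Xrcc3: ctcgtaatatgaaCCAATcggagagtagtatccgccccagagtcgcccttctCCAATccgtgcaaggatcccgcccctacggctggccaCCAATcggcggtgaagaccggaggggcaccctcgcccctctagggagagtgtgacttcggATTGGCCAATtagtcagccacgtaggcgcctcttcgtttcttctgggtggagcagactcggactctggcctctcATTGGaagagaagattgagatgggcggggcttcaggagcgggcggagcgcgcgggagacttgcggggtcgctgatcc
Brip1: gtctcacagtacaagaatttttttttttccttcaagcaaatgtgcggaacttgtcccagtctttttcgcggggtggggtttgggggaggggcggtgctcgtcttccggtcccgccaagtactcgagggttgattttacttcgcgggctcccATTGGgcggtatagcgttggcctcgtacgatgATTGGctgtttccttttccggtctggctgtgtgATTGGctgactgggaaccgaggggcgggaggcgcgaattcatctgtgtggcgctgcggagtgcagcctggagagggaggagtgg
Chek2: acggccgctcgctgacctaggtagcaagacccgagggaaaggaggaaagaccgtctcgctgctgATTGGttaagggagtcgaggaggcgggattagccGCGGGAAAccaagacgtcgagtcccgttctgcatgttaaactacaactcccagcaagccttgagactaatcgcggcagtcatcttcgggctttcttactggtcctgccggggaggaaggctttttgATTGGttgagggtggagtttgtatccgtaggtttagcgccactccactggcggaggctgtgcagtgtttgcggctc
Ube2t: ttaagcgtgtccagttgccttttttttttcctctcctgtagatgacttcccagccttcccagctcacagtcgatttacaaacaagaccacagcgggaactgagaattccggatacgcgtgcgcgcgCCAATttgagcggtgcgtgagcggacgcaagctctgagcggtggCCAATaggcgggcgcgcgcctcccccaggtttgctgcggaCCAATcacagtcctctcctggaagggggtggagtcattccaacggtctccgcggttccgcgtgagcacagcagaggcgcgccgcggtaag
Chek1: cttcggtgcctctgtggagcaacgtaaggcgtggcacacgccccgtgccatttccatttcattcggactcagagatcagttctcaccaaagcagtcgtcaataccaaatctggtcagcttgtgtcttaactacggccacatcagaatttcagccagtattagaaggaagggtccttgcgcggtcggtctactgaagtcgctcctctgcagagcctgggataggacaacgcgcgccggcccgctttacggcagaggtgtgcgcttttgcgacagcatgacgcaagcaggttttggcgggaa
Msh6 holds TTTCCCGC within the 50 bases after its start and an inverted CCAAT before the start, Chek2 holds the inverse GCGGGAAA between 2 inverted CCAAT letters, and Xrcc3 holds CCAAT letters on both strands. The 6 matches of Xrcc3, which had a log2 fold change of -0.12, were all CCAAT letters. Chek1, at -0.92, held none of the listed letters. Its window ends in TTTGGCGGGAA, which departs from the listed TTTGGCGC only at the last of those letters, and only exact letters were searched. The Brip1 window likewise holds TTTCGCGG, which departs from the listed TTTCGCGC only at the last letter. Such near matches were not counted in the other windows. A match is a string of letters, not a site shown to be bound, and a window without a match may hold related letters.

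Other repair genes were set beside the 30, from lists that share none of them. Of 30 other genes of homologous recombination, 21 had values below 0 (median log2 fold change -0.29), and 0 passed over all genes in either direction by edgeR. At an unadjusted p under 0.05, 6 of these 30 were lower, against 8.97% of all genes, and 2 were higher, against 1313 of the 15022 genes tested. Of 17 other Fanconi genes, 11 were negative, with a median of -0.08, of 16 other mismatch repair genes 15 were, with a median of -0.37, and of 18 other checkpoint genes 14 were, with a median of -0.33. In these 3 lists too, 0 passed by edgeR, with 5, 8 and 10 genes at an unadjusted p under 0.05 in the lower direction and 1, 0 and 0 in the higher, against 8.97% of all genes in the lower direction. A further 3 lists, of other repair pathways, had medians nearer 0 than the 30 genes. Non-homologous end joining, which rejoins ends without a template, had a median of -0.07 over 10 genes, nucleotide excision repair 0.09 over 18 genes and base excision repair 0.02 over 19 genes. In those 3 lists 0 genes passed, with 0, 1 and 1 at an unadjusted p under 0.05 in the lower direction and 0 in the higher. Differences between lists were not tested.

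**Figure D4:**
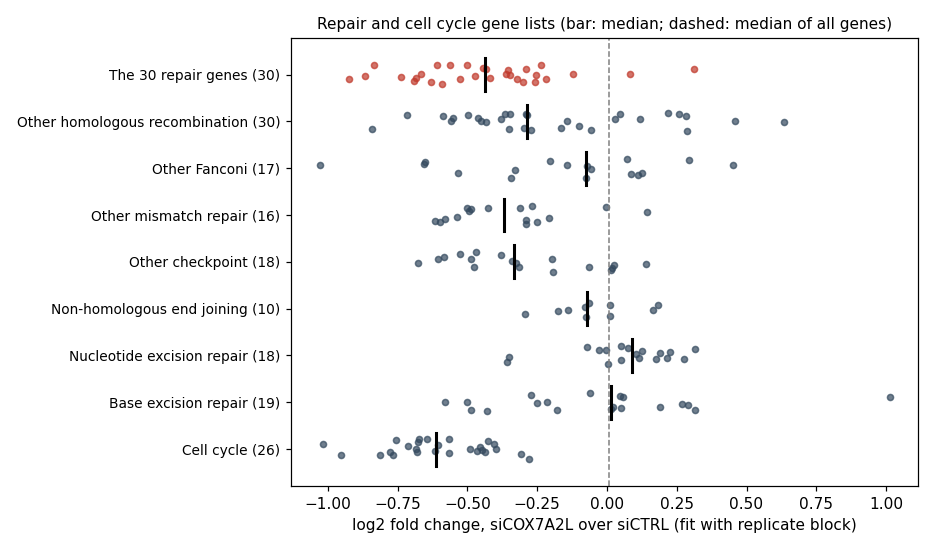
Log2 fold change, Cox7a2l siRNA over control, of every gene of the 30 (red) and of 8 lists of other genes (dark), with the list median as a bar, the number of genes in brackets and the median of all genes tested as a dashed line. Medians run from -0.61 for cell cycle genes and -0.44 for the 30 repair genes to 0.09 for nucleotide excision repair.

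Genes of the cell cycle were lower in the same libraries. All 26 genes of a cell cycle list (replication licensing factors, cyclins, mitotic kinases and nucleotide synthesis) were lower in all 3 pairs, with a median log2 fold change of -0.61. Rrm2, a subunit of ribonucleotide reductase, fell, with 194, 111 and 175 CPM after Cox7a2l siRNA, against 281, 263 and 371 CPM in control cells. Its log2 fold change was -0.95 (standard error 0.15, edgeR adjusted p = 0.0231), and the other 25 did not pass over all genes. The Rrm2 call was lost without the block (log2 fold change -0.93, edgeR adjusted p = 0.735) and without replicate 3. All 26 reached an unadjusted p under 0.05 in the lower direction, against 8.97% of all genes, and DESeq2 with the block called 16 of the 26 lower, against 2.39%. The summed level of all 26 was 3150, 3205 and 2062 CPM in Cox7a2l siRNA replicates 1, 2 and 3, against 4215, 4259 and 4246 CPM in control replicates. The summed level of the 30 repair genes was 705, 734 and 413 CPM after Cox7a2l siRNA, against 887, 863 and 783 CPM in control cells. In both sums each Cox7a2l siRNA library lay below each control library, and replicate 3 was the lowest after Cox7a2l siRNA. Myotube markers were highest in replicate 3 of both groups, at 288 CPM after Cox7a2l siRNA and 100.5 CPM in control cells. The part of cell cycle genes and myotube markers in the values of the repair genes was not tested.

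Calls on single genes depended on the tool. DESeq2 with the replicate block called 5 of 30 genes lower, against 2.39% of all genes it tested, and 0 higher, against 2.01%. They were Msh6 (adjusted p = 6.9e-04), Rad54l (0.0107), Bard1 (0.0416), Chek1 (0.0449) and Brip1 (0.0475). The authors' deposited table gives an adjusted p under 0.05 to 7 of 30, all lower, against 3.45% of the genes it tested, and 0 higher, against 2.89%. In the authors' deposited table these are Msh6 (log2 fold change -0.84, adjusted p = 8.3e-05), Rad54l (-0.89, 0.00462), Brip1 (-0.70, 0.0185), Chek1 (-0.95, 0.0229), Bard1 (-0.61, 0.0284), Fanca (-0.60, 0.0391) and Brca1 (-0.68, 0.04997). Without the replicate block edgeR called 0 of 30 (adjusted p from 0.768 to 0.990), with 6 at an unadjusted p under 0.05 in the lower direction, against 2.86% of all genes. Over all genes, 0.0133% were called lower without the block. The fitted median was -0.40 without the block.

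Overlapping genes limit the reading of a few members, because the sources used here do not say whether strand was used in counting. Exons of genes on the opposite strand cover 18.6% of Fancc, 16% of Fanci, 15.4% of Rad54l, 13.7% of Fancl and 10.5% of Fanca in a GRCm38 annotation, another build than the authors' mm39.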

How the data were processed

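Libraries were strand-marked by dUTP and sequenced on an Illumina NovaSeq, per the labels' protocols. The submitters' processing notes name mm39 as the build, and as tools Salmon (0.13.1), DESeq2 (1.30.1) and Trim Galore (0.6.4), with no role stated. The authors deposited estimated counts per gene, not scaled to depth, and TPM values scaled to length. Their deposited table of log2 fold changes and adjusted p-values also holds a normalised signal, counts over a size factor, not used here. Of gene rows, 97.6% received a symbol by identifier without version (GENCODE M21).

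Because the values were estimated counts, they were rounded to whole numbers. edgeR (4.0.16, R 4.3.3) was run with TMM scaling, filterByExpr on the groups, which left 15022 genes, robust quasi-likelihood tests, replicate number as block, Benjamini-Hochberg adjustment at 0.05 over all genes. CPM values use TMM-scaled library sizes; pair values use log2 CPM with a prior count of 2. The standard error is the log2 fold change over the root of F. DESeq2 1.42.0 was an alternative. Scripts were tested on simulated counts. A gene row without a symbol took 36.9% to 53.6% of TPM, so TPM of other genes depends on it. The lowest depth, 9890218 counts, limits low genes most.

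Replicate number was planned as the block, and the labels give both groups the same numbers. Deviations from the group means correlated between libraries of the same number at 0.53, 0.45 and 0.67 for replicates 1, 2 and 3. Across numbers 1 and 2 they correlated at 0.43 and 0.44. These values cannot tell whether replicates 1 and 2 are paired by number, so pairs 1 and 2 are less certain. Control replicates 1 and 2, the most alike, differed by more than counting noise (median chi-square 0.838 against 0.455) and were kept as 2 samples.

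The genes, lists and tests were chosen with earlier results of these data known. Per-library values were given for called genes and, in each role group, for the largest and smallest absolute change and the highest TPM; Bard1, Xrcc2, Fancl, Ube2t, Nbn, the marker genes given singly, the examples of replicate 3 against replicates 1 and 2, the TPM values of Rad51ap1 and Chek2 and the Msh6 promoter were added after their values were seen. Of each list, up to 2 called genes per direction were named. Log2 fold changes for Cox7a2l siRNA over control are positive where the Cox7a2l siRNA group is higher.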

Additional observations from a re-analysis of the deposited data

How the results depend on the processing

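The median log2 fold change of the 30 genes stayed between -0.62 and -0.25 in all 9 alternatives, negative for 28 genes in each, with 22 genes lower in all 3 pairs under RLE factors and 21 under library size alone (both chosen after seeing the data). The number of calls did not hold: over all genes, the 30 repair genes and the 152 listed genes, the fit with the replicate block gave 109 (65 higher, 44 lower), 1 and 1. Without the replicate block these were 2 (0 higher, 2 lower), 0 and 0. With a term for replicate 3 they were 197 (118 higher, 79 lower), 1 and 3. DESeq2 gave 507 (232 higher, 275 lower), 5 and 22. Library size alone gave 58 (41 higher, 17 lower), 0 and 1. No filter gave 1257 (568 higher, 689 lower), 11 and 40. Under the block, leaving out 1 library also removes its pair. Leaving out 1 replicate of both groups gave 51 to 1210 (31 to 542 higher, 20 to 668 lower), 0 to 14 and 0 to 38, the lowest without replicate 3 and the highest without replicate 2. With a replicate left out, Fance ran from -0.024 to 0.23 and Nbn from -0.50 to 0.17, both turning sign without replicate 3. Why counts differ between settings was not tested. Low depth in Cox7a2l siRNA replicate 3 limits Fancg, Fancl and Xrcc2 most.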

Other observations

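Rad51ap1 differed between the deposited scales. It had 8.08, 9.81 and 5.26 TPM in Cox7a2l siRNA replicates 1, 2 and 3, against 9.03, 7.99 and 20.6 TPM in control replicates 1, 2 and 3, while its normalised counts in the control replicates were 16.7, 13.97 and 16.1 CPM. Chek2 had 10.7, 4.97 and 6.82 TPM in Cox7a2l siRNA replicates 1, 2 and 3, against 9.15, 9.04 and 14.4 TPM in control replicates 1, 2 and 3, while its normalised counts in the control replicates were 13.7, 13.6 and 12.3 CPM.

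Base excision repair held the widest spread of the lists, from -0.58 to 1.01 on the log2 scale, with 0 of 19 genes past the threshold by edgeR and 1 at an unadjusted p under 0.05 in the lower direction, 0 in the higher.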
